A study of Loxodonta africana with 12 samples.

Results

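Interferon-stimulated genes were followed in blood cells of the African elephant (Loxodonta africana) after irradiation and over time. They were taken from a list of 49 symbols by matching the gene name that the authors' tables give, and 37 of the 49 had a row among the 16406 genes of each table. The other 12 (DDX60, DTX3L, IFI6, IFIT1, IFIT2, ISG20, MX1, SAMD9, SP100, SP110, TRIM21 and USP18) were not analysed here. The study asks which genes differ between irradiated and untreated cells. Total RNA from blood was sequenced in 12 libraries, 3 each of untreated cells at 5 h, cells given 2 Gy at 5 h, untreated cells at 24 h and cells given 2 Gy at 24 h. No genotype, age or further agent is given for any of the groups. Whether the replicates are different elephants or repeats of 1 sample is not stated in the labels. The p-values therefore reflect only the spread among these libraries, part of which may be technical.

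Interferons are secreted proteins that warn cells of infection. Type I interferons such as IFNB1 bind a receptor of IFNAR1 and IFNAR2, whose kinases JAK1 and TYK2 activate STAT proteins. STAT2 and IRF9 are in the complex that results. It enters the nucleus and switches on interferon-stimulated genes, whose products degrade viral RNA, block viral assembly or raise the cell's sensitivity to foreign nucleic acid. IFNG, made mainly by T cells and NK cells, signals through its own receptor. DNA damage can also feed this pathway, through DNA in the cytosol that is sensed upstream of the interferon genes.

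The libraries held between 18022475 and 38138163 counts, and the irradiated libraries of 24 h were among the shallowest at 18022475 to 23805619. MDM2, a p53 target used as a check of irradiation, stood at 190.3, 176 and 198 CPM (counts scaled to library size) in untreated and 1344, 1167 and 1044 CPM in irradiated replicates 1, 2 and 3 of 5 h, and at 121, 134 and 120.5 against 846, 776 and 790.3 CPM at 24 h. Its groups did not overlap at either time, so the irradiation labels and MDM2 went together in every library. Markers of B cells, T cells, NK cells, monocytes, neutrophils, dendritic cells and platelets were all detected, and every marker gene with a row had counts in each group. VSIG4, a macrophage marker, had at most 18 counts in a library and 0 in irradiated replicate 2 of 5 h. PTCRA, a marker of plasmacytoid dendritic cells, had at most 13 counts in a library. It was at 0 in untreated replicates 1 and 2 and irradiated replicate 2 of 5 h, and in irradiated replicate 3 of 24 h. In bulk RNA, fewer cells of a type and less RNA per cell cannot be told apart.

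The interferon-stimulated genes were already expressed in untreated cells, and in untreated cells at 5 h all 37 lay within the top 48.8% of 15200 genes. Per length (FPKM, fragments scaled to gene length and library size, mean ± SD, n = 3), ISG15, a ubiquitin-like modifier, was the highest in untreated cells at 5 h at 901 ± 251, within the top 0.849% of genes. OAS1, which makes the oligoadenylates that activate RNase L, followed at 848 ± 176, which was within the spread of ISG15. The transcription factor IRF1 came next at 391 ± 38.7, the guanylate-binding GTPase GBP2 at 355 ± 44.5 and IFIT3, a partner of the other IFIT proteins in binding viral RNA, at 306 ± 93.4. These 3 did not differ beyond their spread. The lowest were the nucleotide kinase CMPK2 at 24.0 ± 5.32, IRF7, which drives type I interferon genes, at 20.8 ± 5.34, the galectin-binding glycoprotein LGALS3BP at 17.2 ± 1.70 and the antiviral chaperone RTP4 at 10.9 ± 3.00 FPKM. At 24 h ISG15 was again the highest, at 847 ± 123 FPKM in untreated and 823 ± 84.8 in irradiated cells. BST2, also called tetherin, which holds budding virus at the cell surface, stood 17th of the 37 genes in untreated cells at 5 h (117 ± 22.7 FPKM) and 4th at 24 h (563 ± 131 in untreated, 452 ± 115 in irradiated cells). IFIT5, which binds the ends of foreign RNA, stood 30th in untreated cells at 5 h (47.2 ± 16.1) and last of the 37 at 24 h, at 13.8 ± 2.04 in untreated and 7.88 ± 1.52 FPKM in irradiated cells.

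Several of the genes are neighbours in the assembly. OAS1, OAS3 and OAS2 lie in a row on scaffold 70, all on the minus strand, with 8.45 kb between OAS1 and OAS3 and 6.72 kb between OAS3 and OAS2. HERC5 and HERC6 are 14.4 kb apart on scaffold 30, IFI44 and IFI44L 17.3 kb apart on scaffold 17, and RSAD2 and CMPK2 7.67 kb apart on opposite strands of scaffold 20. The row of HERC5 overlaps that of the small RNA SNORD112 and the row of HERC6 overlaps a gene with no symbol, so reads of these pairs may be shared.

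The genes moved together from library to library within each group. At 5 h replicate 3 was the highest of its group for 34 of the 37 genes in untreated and for 33 in irradiated cells, and for 33 genes in both (89.2%, against 21.0% of 15200 genes in all). Replicate 2 was the lowest in both groups for 36 genes (97.3%, against 16.8% of all genes). The 37 genes together took 0.901%, 0.716% and 1.08% of the raw counts in untreated replicates 1, 2 and 3. In irradiated replicates they took 0.855%, 0.683% and 0.999%, so the share differed more between replicates than between untreated and irradiated cells. At 24 h untreated replicate 2 was the highest of its group for 35 genes and irradiated replicate 1 for 34, both of them for the same 34 (91.9%, against 25.8% of all genes). Untreated replicates 1, 2 and 3 of 24 h held shares of 0.829%, 1.04% and 0.828%, and their irradiated counterparts 0.924%, 0.753% and 0.754%. In 42 other interferon-induced genes, listed apart from the 37, untreated replicate 2 and irradiated replicate 1 of 24 h were both the highest for 19 (45.2%). Results of 24 h are therefore given with and without these libraries where that changes them.

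**Figure D1:**
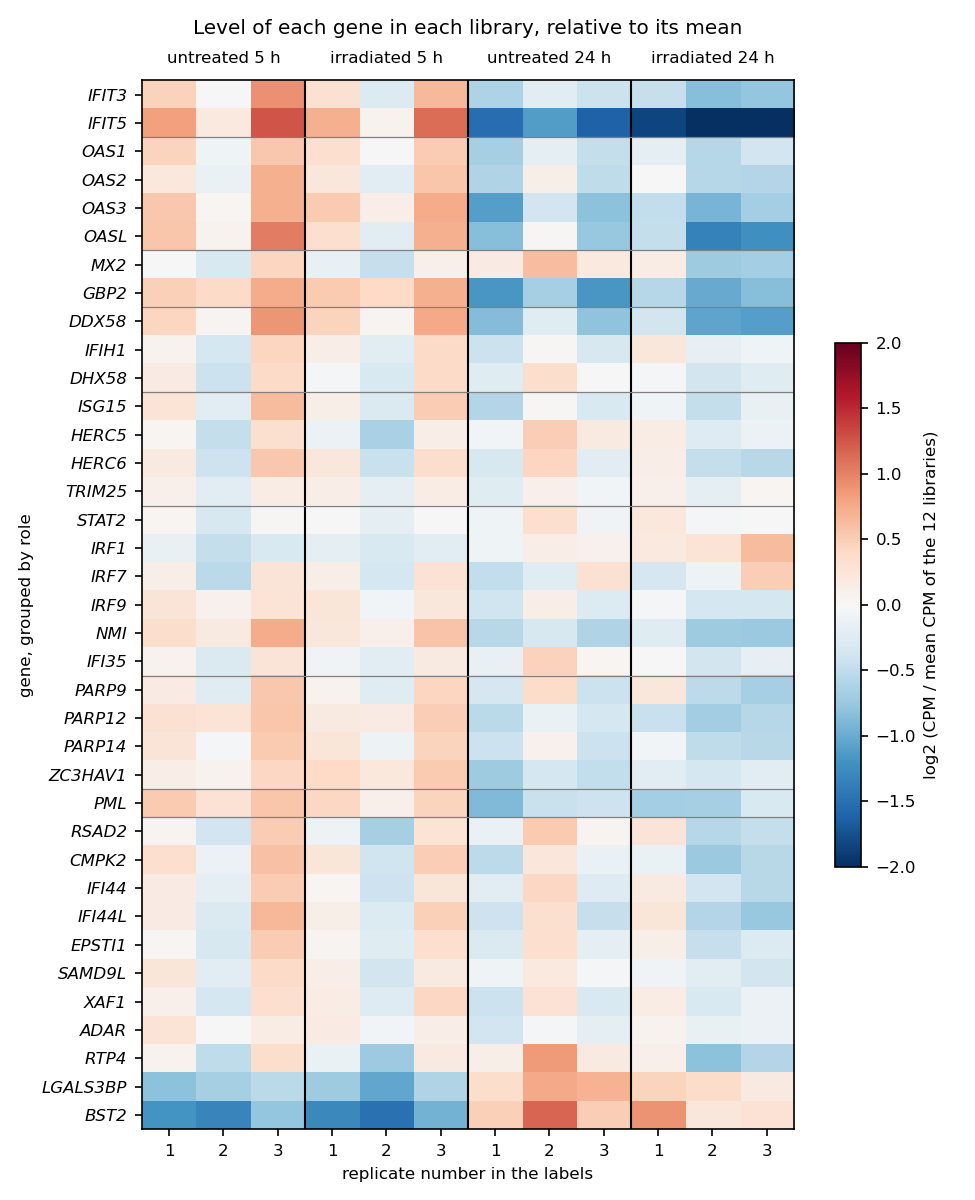
Level of each of the 37 interferon-stimulated genes in the 12 libraries, as log2 of CPM over the gene's mean CPM in the 12 libraries (red above, blue below the mean; the colours end at 2 in either direction). Columns are the replicates 1, 2 and 3 of each group and rows are ordered by role. At 5 h the column of replicate 3 is the highest and that of replicate 2 the lowest of its group for most genes, in untreated and irradiated cells. At 24 h untreated replicate 2 and irradiated replicate 1 stand above their groups, and IFIT5 and BST2 differ most between the times.

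The spread this gives between replicates was wide for these genes at 5 h. The median biological coefficient of variation (the replicate spread beyond counting error, as edgeR estimates it) was 0.181 for the 37 genes at 5 h, against 0.0914 for the 7958 genes at least as abundant as the least abundant of them. With the replicate number as a block the medians were 0.0395 and 0.0423. At 24 h the medians without a block were 0.169 and 0.128. Deviations from the group mean correlated at 0.42, 0.41 and 0.62 between untreated and irradiated libraries of 5 h with numbers 1, 2 and 3 (across 15200 genes, which are not independent), so the numbers pair the libraries at 5 h and the blocked values are given beside the unblocked ones there. At 24 h the same correlations were 0.05, -0.47 and 0.73, and the numbers do not pair the libraries.

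The first comparison was irradiated against untreated cells at 5 h. None of the 37 interferon-stimulated genes passed edgeR's quasi-likelihood test (Benjamini-Hochberg adjusted p below 0.05), while 1.6% of the 12969 genes tested did, 1.12% higher and 0.478% lower. At an unadjusted p below 0.05 the count was 0 as well, and DESeq2 called 0. The log2 fold changes, irradiated over untreated, ran from -0.29 (OASL) to 0.16 (ZC3HAV1), with a median of -0.08 against 0 over all genes. They were negative in 30 and positive in 7, with GBP2 changing sign under RLE scaling. All 37 of the 95% intervals lay within a doubling or halving, the widest bounds being -0.94 for OASL and 0.58 for IFIT5. The untreated and irradiated groups overlapped in all 37 genes, whereas among all genes 10.2% stood higher and 8.43% lower without overlap.

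With the replicate block small falls were called at 5 h in some of the genes, and most were not called. In that fit 14 of the 37 genes passed, 13 lower and 1 higher, where 9.92% of all genes were called lower and 10.6% higher. Measured within the 3 numbered pairs, 18 of the 37 genes (48.6%) were lower after irradiation in every pair and 2 (5.41%) higher in every pair. Among all genes the shares were 21.6% and 25.5%. The median log2 difference of the 37 genes was -0.09, -0.06 and -0.1 in pairs 1, 2 and 3, against 0, 0.05 and -0.01 over all genes. The 37 genes moved together from library to library, so these counts are not of independent genes. The block needs the pairing by number, which rests on the correlations above and not on the labels.

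By role, the IFIT genes were both called lower with the block. IFIT3 stood at 428, 310.3 and 591 CPM in untreated and 385, 259.5 and 488 CPM in irradiated replicates 1, 2 and 3 (log2 fold change -0.24 ± 0.27, adjusted p = 0.77, with the block -0.24 ± 0.04 and 0.00055). Each irradiated library lay below the untreated library of its number, and the groups overlapped. Without untreated replicate 3 the unblocked value was 0.02 and without irradiated replicate 3 it was -0.48. For IFIT5 the adjusted p with the block was 0.0498, close to the threshold. Of the OAS genes only OASL, a relative without synthase activity that aids RNA sensing, passed with the block. Its values were 288, 206 and 399.8 CPM in untreated and 247, 168 and 323 CPM in irradiated replicates (log2 fold change -0.29 ± 0.28, adjusted p = 0.73, with the block -0.29 ± 0.04 and 0.00011). It was lower in 3 of 3 pairs. OAS1, OAS2 and OAS3 had log2 fold changes of -0.04, -0.09 and 0.03, none of which passed in either fit.

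Of the GTPases, MX2, a dynamin-like restriction factor, stood at 87.7, 70.9 and 117 CPM in untreated and 78.8, 63.4 and 93.2 CPM in irradiated replicates (log2 fold change -0.24 ± 0.20, adjusted p = 0.69, with the block 0.0033). All 3 pairs were lower after irradiation and the groups overlapped. GBP2 had a log2 fold change of 0.00 ± 0.12 and passed in neither fit. The helicases that sense viral RNA, DDX58 (RIG-I), IFIH1 (MDA5) and DHX58 (LGP2), had log2 fold changes of -0.06, 0.02 and -0.04, with 0 of 3 called in either fit. In the ISG15 conjugation group, ISG15 and its ligase HERC5 were called lower with the block (-0.13 ± 0.04, adjusted p = 0.031, and -0.19 ± 0.04, adjusted p = 0.0021), and HERC6 and the ubiquitin ligase TRIM25 were not.

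Among transcription factors and their partners, NMI, which binds STAT proteins, was called lower with the block (-0.14 ± 0.04, adjusted p = 0.027). The other 5 (STAT2, IRF1, IRF7, IRF9 and IFI35) passed in neither fit, with log2 fold changes from -0.07 to 0.06. ZC3HAV1, the zinc-finger antiviral protein that binds foreign RNA, was the 1 gene called higher. It stood at 345, 329.8 and 417 CPM in untreated and 415, 362 and 451 CPM in irradiated replicates (log2 fold change 0.16 ± 0.12, adjusted p = 0.64, with the block 0.014). Every pair was higher after irradiation, and the groups overlapped. PARP12, an ADP-ribosyltransferase of the same group, stood at 180.0, 176 and 214 CPM against 165, 163 and 203 CPM (log2 fold change -0.11 ± 0.11, adjusted p = 0.75, with the block 0.066).

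PML, the scaffold of nuclear bodies, stood at 151, 129 and 155 CPM in untreated and 141, 112 and 144 CPM in irradiated replicates (log2 fold change -0.14 ± 0.11, adjusted p = 0.67, with the block 0.026). Of the 11 other effectors 5 were called lower with the block. IFI44, an interferon-induced GTP-binding protein, had 245, 194 and 310.2 CPM in untreated and 225, 164 and 259 CPM in irradiated replicates (log2 fold change -0.22 ± 0.20, adjusted p = 0.72, with the block 0.0017). SAMD9L, an antiproliferative and antiviral factor, had 499.8, 364 and 551 against 460.0, 326 and 476 CPM (log2 fold change -0.18 ± 0.18, adjusted p = 0.75, with the block 0.0047). Both were lower in 3 of 3 pairs with overlapping groups. The other effectors called with the block were RSAD2 (viperin, which makes a chain-terminating nucleotide) at -0.23 ± 0.05, RTP4 at -0.21 ± 0.07 and BST2 at -0.16 ± 0.05. The adjusted p of these 3 were 0.0015, 0.034 and 0.035 with the block.

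Marker genes of blood cell types moved at 5 h as well. The summed level of 10 dendritic cell markers was 442 to 464 CPM in untreated and 270.4 to 302 CPM in irradiated libraries, with 3 of 9 tested markers called lower, and 7 with the block. Most of that difference was IRF8, with means of 221 and 113 CPM. That of 14 B cell markers was 318 to 387 CPM in untreated and 202 to 268 CPM in irradiated libraries, with 1 of 14 called lower, and 11 with the block. Neither pair of ranges overlapped. The block also called 7 of 14 T cell markers and 7 of 10 NK and cytotoxic markers lower. Of 9 monocyte and macrophage markers it called 5 higher and 3 lower, and of 11 neutrophil markers 2 higher and 3 lower. The summed levels of these 4 lists overlapped between the groups. The part of these cell types in the differences above was not tested.

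**Figure D2:**
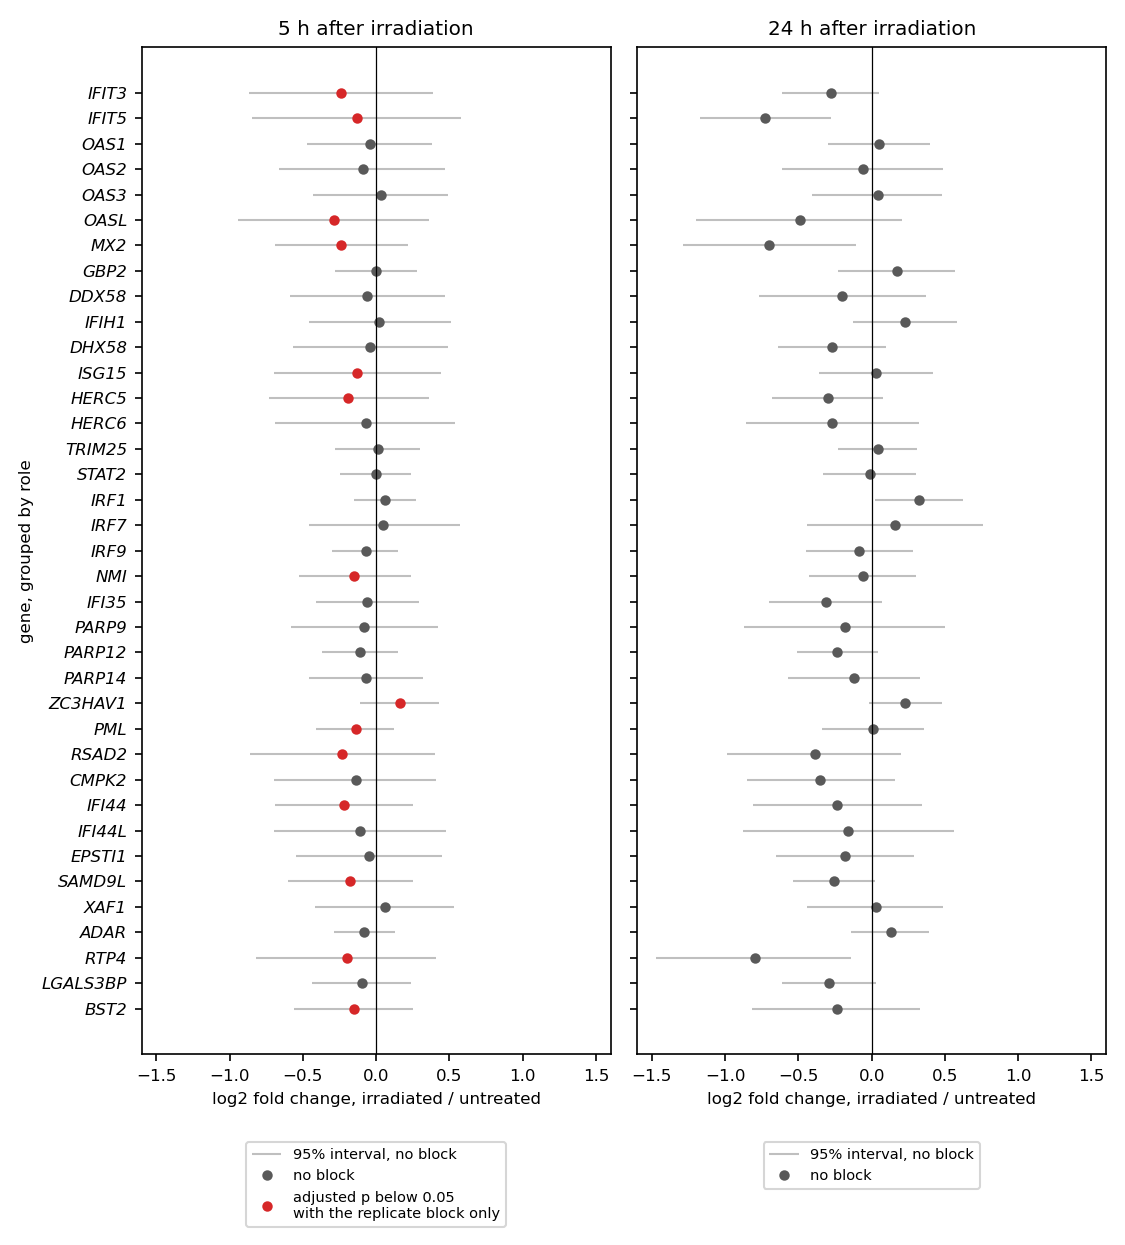
Log2 fold change (irradiated over untreated) of the 37 genes at 5 h and at 24 h, with the 95% interval of the fit without a block, from 3 libraries a group. Red points mark the 14 genes with an adjusted p below 0.05 in the blocked fit only, all at 5 h. The points of 5 h lie between -0.29 and 0.16, and those of 24 h between -0.80 and 0.32.

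At 24 h after irradiation again none of the 37 interferon-stimulated genes passed the test, where 6.73% of 14373 genes did, 1.8% higher and 4.94% lower. At an unadjusted p below 0.05 there were 1 higher and 3 lower, and DESeq2 called 1, IFIT5, lower (adjusted p = 0.015, where it called 10.9% of 14177 genes). The median log2 fold change was -0.18 against 0.01 over all genes, with 25 negative and 12 positive, STAT2 changing sign under RLE scaling. In 33 of the 37 the 95% interval lay within a doubling or halving. In 4 genes the groups did not overlap, IRF1 higher and IFIT5, MX2 and RTP4 lower, which among all genes was so for 9.42% in the higher and 16.8% in the lower direction.

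The smallest p belonged to IFIT5 (ENSLAFG00000011455, scaffold 10, 29203977 to 29205422, minus strand). It stood at 15.4, 20.4 and 14.5 CPM in untreated and 12.4, 9.49 and 8.52 CPM in irradiated replicates of 24 h. All irradiated libraries were below all untreated ones (log2 fold change -0.73 ± 0.19, adjusted p = 0.07). Next was RTP4 (ENSLAFG00000027127, scaffold 25, 7780971 to 7786017, plus strand), at 22.5, 37.6 and 23.5 CPM in untreated and 22.4, 11.8 and 13.9 CPM in irradiated replicates. Untreated replicate 2 was far above the others, and irradiated replicate 1 nearly reached the lowest untreated library (log2 fold change -0.80 ± 0.28, adjusted p = 0.16). MX2 (ENSLAFG00000009018, scaffold 67, 7653028 to 7680945, minus strand) had 97.4, 134 and 99.9 CPM against 97.1, 53.2 and 54.3 CPM, where irradiated replicate 1 again stood just under the untreated libraries (log2 fold change -0.70 ± 0.25, adjusted p = 0.17). Without irradiated replicate 1 these 3 genes passed and were the 3 that did, IFIT5 at -0.91 (adjusted p = 0.030), RTP4 at -1.14 (0.037) and MX2 at -1.06 (0.013). In that fit 7.19% of all genes passed, 5.1% lower. Leaving out any other library of 24 h gave 0 calls among the 37, with 1.98% to 3.66% of all genes called.

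IRF1 (ENSLAFG00000007502, scaffold 1, 29445345 to 29450472, plus strand) stood at 515, 597 and 581 CPM in untreated and 626, 657 and 845 CPM in irradiated replicates. All irradiated libraries were above the untreated ones, with replicate 3 the highest (log2 fold change 0.32 ± 0.13, adjusted p = 0.21). ZC3HAV1 stood at 191, 247 and 222 CPM against 268, 245 and 268 CPM (log2 fold change 0.23 ± 0.11, adjusted p = 0.26), irradiated replicate 2 lying just under untreated replicate 2. For 4 further genes the values leaned lower with overlap. SAMD9L had 398, 481 and 414 CPM in untreated and 399.9, 359.8 and 327 CPM in irradiated replicates (log2 fold change -0.26 ± 0.12, adjusted p = 0.27). LGALS3BP had 15.5, 20.6 and 19.8 against 16.5, 15.7 and 13.8 CPM (log2 fold change -0.29 ± 0.13, adjusted p = 0.27). PARP12 had 99.9, 132 and 114 against 107, 90 and 98 CPM (log2 fold change -0.24 ± 0.12, adjusted p = 0.3). IFIT3 had a log2 fold change of -0.28 ± 0.14 (adjusted p = 0.3).

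The remaining genes at 24 h are given by role, the other effectors only in part. Among the OAS genes OAS1, OAS2 and OAS3 had log2 fold changes of 0.05, -0.06 and 0.04, and OASL had -0.49 ± 0.30. The RNA helicases stood at -0.20 (DDX58), 0.23 (IFIH1) and -0.27 (DHX58), so the 3 sensors did not share a sign. ISG15 had 0.03 ± 0.17, and HERC5 -0.30 ± 0.16. HERC6 stood at -0.27, TRIM25 at 0.04 and GBP2 at 0.17. Of the transcription factors and partners, STAT2, IRF7, IRF9, NMI and IFI35 had -0.01, 0.16, -0.09, -0.06 and -0.31. PARP9, PARP14 and PML had -0.18, -0.12 and 0.01. Of the 11 other effectors 9 were negative, RSAD2 at -0.39 ± 0.25 and CMPK2 at -0.35 ± 0.22 among them, and ADAR, which edits double-stranded RNA, was positive at 0.13 ± 0.11. None of these passed.

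Blood cell markers differed strongly at 24 h. The summed level of 14 B cell markers was 430.1 to 523 CPM in untreated and 65.5 to 82.6 CPM in irradiated libraries, and 13 of 13 tested markers fell. Of 10 NK and cytotoxic markers 6 fell, with sums of 427 to 487 CPM in untreated and 167 to 242 CPM in irradiated libraries. Monocyte and macrophage markers summed to 3434 to 4144 CPM in untreated and 6134 to 7089 CPM in irradiated libraries, with 2 of 10 called higher and 1 lower. Most of that difference was ITGAM, with means of 1236 and 3123 CPM. The means of CD163 were 321 and 722 CPM and those of CD68 465 and 741 CPM. CSF1R hardly differed (1408 and 1424 CPM), and CPVL went the other way (63.9 and 7.2 CPM). The 10 dendritic cell markers summed to 561 to 733 CPM in untreated and 396 to 510.0 CPM in irradiated libraries, with 4 of 9 tested called lower. Among them IRF8 had means of 227 and 104 CPM, and CD1C went the other way with 78.4 and 95.1 CPM. T cell markers summed to 591 to 623 CPM in untreated and 416 to 526 CPM in irradiated libraries, with 3 of 14 called lower. Neutrophil markers summed to 462 to 683 and 924 to 1073 CPM (2 of 12 called higher), and platelet markers to 51.9 to 67.0 and 109 to 138 CPM (3 of 9 called higher). None of these ranges overlapped, and the part of these cell types in the values of IFIT5, RTP4, MX2 and IRF1 was not tested.

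Whether the irradiation effect differed between the times was tested as an interaction over all 12 libraries. None of the 37 genes passed, 0 had an unadjusted p below 0.05 and DESeq2 called 0, where 0.882% of 15200 genes passed. The differences of the log2 fold changes, 24 h minus 5 h, ran from -0.60 (RTP4) to 0.25 (IRF1). The smallest p values were those of IFIT5 (-0.59 ± 0.41), IRF1 (0.25 ± 0.18), RTP4 (-0.60 ± 0.43), MX2 (-0.47 ± 0.35), ADAR (0.20 ± 0.16), IFI35 (-0.26 ± 0.25), LGALS3BP (-0.19 ± 0.21) and PML (0.15 ± 0.21). Their adjusted p lay between 0.75 and 0.93. For ADAR the libraries behind this were 234, 194 and 213 CPM in untreated and 216, 185 and 211 CPM in irradiated replicates of 5 h, and 147, 189.6 and 168 against 201, 174 and 177 CPM at 24 h. For IFI35, a partner of NMI, they were 88.8, 69 and 101 against 80.5, 73 and 96.3 CPM and 76.7, 116 and 87 against 85.3, 65.2 and 75.7 CPM. The groups of both genes overlapped at both times.

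Between the times the genes differed far more than between untreated and irradiated cells. In untreated cells 16 of the 37 interferon-stimulated genes passed between 24 h and 5 h, 13 lower and 3 higher at 24 h, where 63.1% of 13445 genes passed, 30.5% lower and 32.6% higher. The median log2 fold change was -0.27 against 0.11 over all genes, and the median size without sign was 0.37 against 0.62. The groups did not overlap in 15 genes, 12 lower and 3 higher, where 33.7% of all genes were lower and 34.9% higher without overlap. With DESeq2's size factors the median of all genes moved by -0.10 here and by -0.14 in irradiated cells. No called gene changed sign under RLE scaling or with DESeq2. The TMM scaling factors ran from 0.849 to 0.887 at 5 h and from 1.094 to 1.291 at 24 h, and FPKM does not include them. In mean FPKM ADAR, called lower in untreated cells, went from 52.2 at 5 h to 56.2 at 24 h. IRF9, called lower in irradiated cells, went from 102.3 to 102.9. The other genes called lower were lower in mean FPKM too, though the size of a fall depended on the scaling. In untreated cells PARP14 went from 849.6 to 596.7 in mean CPM and from 141.2 to 135.6 in mean FPKM.

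IFIT5 showed the largest fall of the 37. It went from 78.8, 51 and 106 CPM at 5 h to 15.4, 20.4 and 14.5 CPM at 24 h, a level 0.22 times that of 5 h (log2 fold change -2.19 ± 0.25, adjusted p = 0.00012). Every library of 24 h was below every library of 5 h. IFIT3 (ENSLAFG00000008209, scaffold 10, 29343422 to 29344678, minus strand), which lies on the same scaffold, went from 428, 310.3 and 591 to 204, 269.6 and 231 CPM without overlap (log2 fold change -0.87 ± 0.21, adjusted p = 0.0062). Of the OAS genes 3 of 4 fell. OAS3 (ENSLAFG00000013640, scaffold 70, 10632381 to 10656153, minus strand) went from 912, 648 and 1031 to 295, 486 and 358 CPM (log2 fold change -1.15 ± 0.21, adjusted p = 0.0014). OASL went from 288, 206 and 399.8 to 109, 199 and 116 CPM (log2 fold change -1.04 ± 0.27, adjusted p = 0.01), and OAS1 from 1089, 750.1 and 1168 to 505, 707 and 577 CPM (log2 fold change -0.71 ± 0.18, adjusted p = 0.0076). In these 3 genes the highest library of 24 h, replicate 2, stayed under the lowest of 5 h. OAS2 had a log2 fold change of -0.56 ± 0.24 (adjusted p = 0.068).

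GBP2 (ENSLAFG00000022418, scaffold 17, 472053 to 486570, plus strand) fell from 668, 625 and 809.7 to 215, 303 and 215 CPM (log2 fold change -1.48 ± 0.16, adjusted p = 8.3e-05). DDX58, the RIG-I gene, fell from 266, 207 and 366 to 109, 168 and 114 CPM (log2 fold change -1.06 ± 0.22, adjusted p = 0.0031). Neither gene had overlapping groups. The other RNA sensors, IFIH1 at -0.27 and DHX58 at 0.02, did not pass, nor did MX2 at 0.31. In the ISG15 conjugation group 0 of 4 passed, ISG15 having -0.50 ± 0.21 (adjusted p = 0.069). NMI fell from 166, 147 and 218 to 88.5, 104 and 85.6 CPM (log2 fold change -0.89 ± 0.15, adjusted p = 0.00089). PML fell from 151, 129 and 155 to 57.1, 77.5 and 79.4 CPM (log2 fold change -0.99 ± 0.12, adjusted p = 0.00018). All 3 libraries of 24 h were below all of 5 h in both.

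Of the PARP genes and ZC3HAV1 3 of 4 fell. ZC3HAV1 went from 345, 329.8 and 417 to 191, 247 and 222 CPM (log2 fold change -0.69 ± 0.12, adjusted p = 0.0012) and PARP12 from 180.0, 176 and 214 to 99.9, 132 and 114 CPM (log2 fold change -0.68 ± 0.11, adjusted p = 0.00098), both without overlap. PARP14, an ADP-ribosyltransferase of interferon signalling, went from 839.8, 694 and 1015 to 519, 750.4 and 520.3 CPM (log2 fold change -0.47 ± 0.18, adjusted p = 0.046), replicate 2 of 24 h reaching above the lowest library of 5 h. ADAR went from 234, 194 and 213 to 147, 189.6 and 168 CPM (log2 fold change -0.31 ± 0.11, adjusted p = 0.033), with all libraries of 24 h below those of 5 h. Leaving out 1 library ended the call of PARP14 in 4 cases (without untreated 5 h replicate 1 or 3 or untreated 24 h replicate 1 or 3, adjusted p 0.079 to 0.13) and that of ADAR in the same 4 (0.051 to 0.10). The call of PARP14 was also lost with the stricter filter on low counts (0.061).

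Only 3 of the 37 genes were called higher at 24 h than at 5 h in untreated cells. BST2 (ENSLAFG00000031751, scaffold 26, 24576038 to 24582102, plus strand) went from 61.1, 55.9 and 81.7 to 193, 312 and 196 CPM, a 3.63-fold level (log2 fold change 1.86 ± 0.21, adjusted p = 0.0001). LGALS3BP (ENSLAFG00000029091, scaffold 49, 3947817 to 3950421, plus strand) went from 6.86, 7.65 and 8.38 to 15.5, 20.6 and 19.8 CPM, a 2.51-fold level (log2 fold change 1.33 ± 0.13, adjusted p = 5.9e-05). IRF1 went from 489.9, 391 and 442 to 515, 597 and 581 CPM (log2 fold change 0.40 ± 0.11, adjusted p = 0.011). In all 3 the groups did not overlap. The call of IRF1 was lost without untreated 5 h replicate 2 (0.30, adjusted p = 0.066) or untreated 24 h replicate 3 (0.34, 0.054). Without untreated 24 h replicate 2 the count of called genes in untreated cells was 22, where 60.6% of all genes passed in that fit. Without any other single library it was 13 to 19, where 50.7% to 59.8% of all genes passed.

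In irradiated cells 16 of the 37 genes passed between the times as well, 13 lower and 3 higher, where 65.9% of 14028 genes passed, 30.6% lower and 35.3% higher. The groups did not overlap in 14, 11 lower and 3 higher (34.9% and 35.7% of all genes). The untreated and irradiated comparisons rest on separate libraries. They shared 15 called genes in the same direction, 93.8% of either list of 16, and the log2 fold changes of the 37 genes correlated at 0.96 between them (0.92 over 13223 genes). These correlations are across genes, which are not independent replicates. By edgeR, ADAR was called in untreated cells only and IRF9, the DNA-binding partner of STAT2, in irradiated cells only. DESeq2 called 19 of the 37 in untreated cells, with OAS2, ISG15 and IRF9 in addition (adjusted p = 0.0067, 0.0087 and 0.017), where it called 51.3% of 15450 genes. In irradiated cells it called 18, with OAS2 and CMPK2 in addition (adjusted p = 0.014 and 0.013), where it called 59.3% of 16404 genes. None of the 37 passed the interaction test, so no difference in the change with time was detected.

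IFIT5 again fell most, from 72.5, 46.9 and 96.8 to 12.4, 9.49 and 8.52 CPM (log2 fold change -2.76 ± 0.27, adjusted p = 5.3e-05). GBP2 fell from 693, 634 and 790.2 to 324, 239.7 and 266 CPM (log2 fold change -1.29 ± 0.14, adjusted p = 0.00011). OASL went from 247, 168 and 323 to 141, 76.6 and 83.9 CPM (log2 fold change -1.23 ± 0.28, adjusted p = 0.0048). In these 3 every library of 24 h lay below every library of 5 h. DDX58 fell from 269.7, 206 and 335 to 154, 95.5 and 92.5 CPM (log2 fold change -1.19 ± 0.23, adjusted p = 0.0023), OAS3 from 911, 693 and 1059 to 450.0, 332 and 392 CPM (log2 fold change -1.12 ± 0.18, adjusted p = 0.00068) and IFIT3 from 385, 259.5 and 488 to 226, 174 and 183 CPM (log2 fold change -0.90 ± 0.22, adjusted p = 0.0058). These too were without overlap.

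PML fell from 141, 112 and 144 to 66, 66.3 and 85 CPM (log2 fold change -0.81 ± 0.14, adjusted p = 0.00095). NMI fell from 151, 140.1 and 192 to 110.1, 79.3 and 77.9 CPM (log2 fold change -0.80 ± 0.17, adjusted p = 0.0033), and PARP12 from 165, 163 and 203 to 107, 90 and 98 CPM (log2 fold change -0.79 ± 0.12, adjusted p = 0.00051). ZC3HAV1 fell from 415, 362 and 451 to 268, 245 and 268 CPM (log2 fold change -0.60 ± 0.11, adjusted p = 0.0017) and OAS1 from 1005, 798 and 1134 to 707, 541 and 616 CPM (log2 fold change -0.60 ± 0.16, adjusted p = 0.0094). In these 5 genes all libraries of 24 h were below those of 5 h. PARP14 went from 833, 658 and 955 to 677, 496 and 481 CPM (log2 fold change -0.50 ± 0.18, adjusted p = 0.035) and IRF9 from 152, 124 and 149.8 to 125, 100.5 and 101 CPM (log2 fold change -0.33 ± 0.13, adjusted p = 0.047). In both, irradiated replicate 1 of 24 h reached above the lowest library of 5 h. Both calls were lost without irradiated 5 h replicate 1 or 3 or irradiated 24 h replicate 2 or 3 (adjusted p 0.057 to 0.11) and with the stricter filter on low counts (0.077 for PARP14 and 0.13 for IRF9).

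The 3 genes called higher were the same as in untreated cells. BST2 went from 57.4, 49.5 and 72.8 to 262, 163 and 171 CPM, a 3.45-fold level (log2 fold change 1.79 ± 0.21, adjusted p = 0.00015). LGALS3BP rose from 7.47, 5.93 and 8.05 to 16.5, 15.7 and 13.8 CPM (log2 fold change 1.16 ± 0.16, adjusted p = 0.0003). IRF1 rose from 483, 442 and 469 to 626, 657 and 845 CPM (log2 fold change 0.67 ± 0.13, adjusted p = 0.0022). All libraries of 24 h exceeded those of 5 h in each. Without irradiated 24 h replicate 1 the count of called genes was 25, of which 22 were lower, where 68.5% of all genes passed in that fit, 33.7% lower. Without any other single library it was 14 to 19, where 57.3% to 65.1% of all genes passed.

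**Figure D3:**
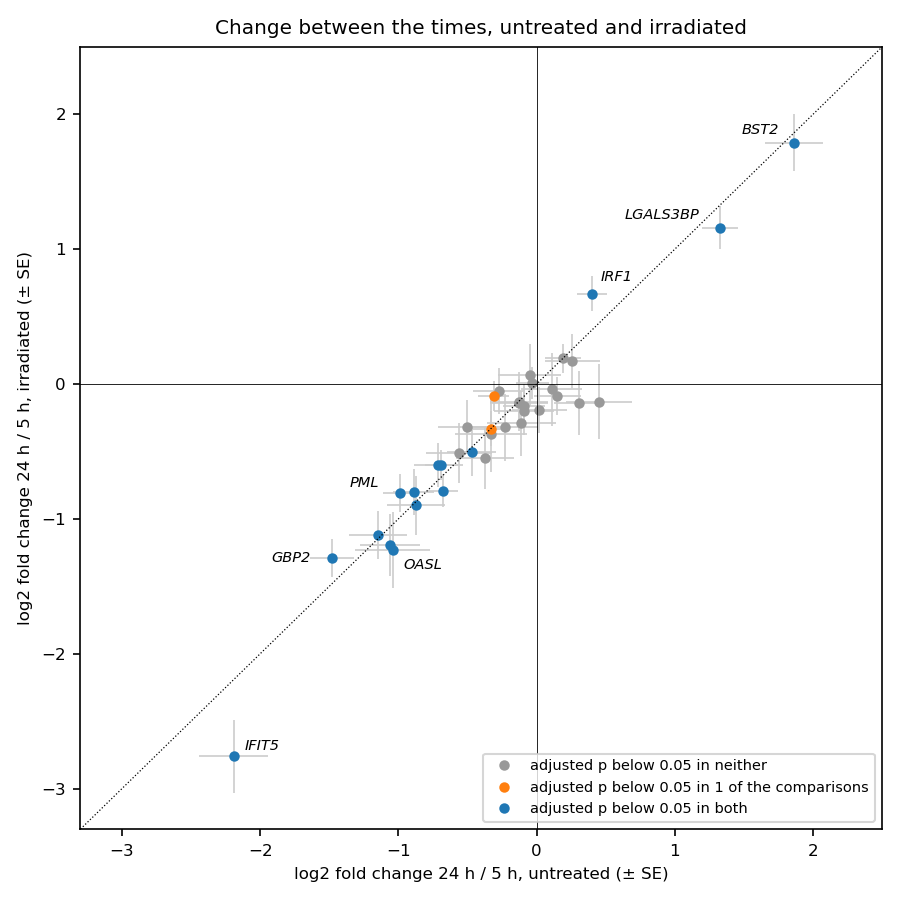
Log2 fold change between 24 h and 5 h of the 37 genes in untreated cells (horizontal axis) and irradiated cells (vertical axis), each ± SE from 3 libraries a group. The dotted line marks equal change. The 15 genes called in both comparisons are blue and the 2 called in 1 of them (ADAR and IRF9) are orange. IFIT5 lies at the lower left (-2.19 and -2.76) and BST2 at the upper right (1.86 and 1.79).

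Neutrophil markers moved with time too. The summed level of 12 neutrophil markers was 2692 to 3158 CPM in untreated cells at 5 h and 462 to 683 CPM at 24 h, and in irradiated cells 2658 to 3011 CPM and 924 to 1073 CPM. The ranges of the times did not overlap. Of the 11 tested in untreated cells 7 were called lower, where 30.5% of all genes were. Of the 12 tested in irradiated cells 6 were called lower, where 30.6% of all genes were. FPR1, MMP9 and S100A12 made up most of the sum, with means of 1118, 1269 and 428 CPM in untreated cells at 5 h. LTF, CAMP and MMP8, all low, had higher means at 24 h than at 5 h in untreated cells. Of 14 B cell markers 6 were called higher in untreated cells, where 32.6% of all genes were. The means of CR2, CD79A, BLK and VPREB3 were lower there at 24 h. In irradiated cells 14 of 14 B cell markers were called lower, where 30.6% of all genes were. The part of these cell types in the changes with time was not tested, and time cannot be told apart from any other difference between the 5 h and 24 h samples.

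Other genes of the interferon pathway were taken from 6 further lists, of which 82 genes had a row. At 5 h 4 of 79 tested passed, 2 higher and 2 lower, where 1.12% of all genes were called higher and 0.478% lower. At 24 h 9 of 80 passed, 2 higher and 7 lower, where 1.8% of all genes were called higher and 4.94% lower. Between the times 50 of 80 passed in untreated cells (27 higher, 23 lower) and 48 of 81 in irradiated cells (26 higher, 22 lower). By direction the lists thus lay near the shares of all genes between the times, given above.

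Of the ligands only IFNB1 and IFNG had a row. IFNG (ENSLAFG00000004484, scaffold 2, 58250479 to 58255565, minus strand) stood at 0.858, 0.846 and 0.812 CPM in untreated and 0.696, 0.709 and 0.829 CPM in irradiated replicates of 5 h. At 24 h it stood at 1.39, 0.751 and 1.93 CPM in untreated and 4.62, 7.07 and 11 CPM in irradiated replicates. The other 9 libraries ran from 0.696 to 1.93 CPM, below all 3 irradiated libraries of 24 h. It did not pass at 5 h (log2 fold change -0.18 ± 0.22, adjusted p = 0.8) and was 5.43-fold higher at 24 h by the edgeR fit with its prior count (log2 fold change 2.44 ± 0.42, adjusted p = 0.019). That call was lost without untreated 24 h replicate 1 (adjusted p = 0.061) or irradiated 24 h replicate 2 (0.070). The interaction passed (2.62 ± 0.52, adjusted p = 0.036) and was lost without any of 9 of the 12 libraries, as given in the closing part. Between the times IFNG rose in irradiated cells (log2 fold change 3.38 ± 0.34, adjusted p = 6.3e-05) and did not pass in untreated cells (0.74 ± 0.38, adjusted p = 0.12).

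IFNB1, the type I interferon, was close to the floor of detection, with 7 to 48 counts a library. It stood at 0.298, 0.219 and 0.325 CPM in untreated and 0.506, 0.336 and 0.307 CPM in irradiated replicates of 5 h, and at 0.676, 0.491 and 1.09 and 0.725, 0.716 and 0.863 CPM at 24 h. Irradiation made no detectable difference at 5 h (log2 fold change 0.44 ± 0.36, adjusted p = 0.69) or 24 h (adjusted p = 0.99). It was higher at 24 h than at 5 h in untreated (log2 fold change 1.47 ± 0.43, adjusted p = 0.017) and irradiated cells (log2 fold change 1.04 ± 0.31, adjusted p = 0.016), calls that DESeq2 did not make (adjusted p 0.058 and 0.1).

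Of the receptor genes, IFNAR1 did not pass in any comparison, with 116, 109.7 and 87.6 CPM in untreated cells at 5 h and 131, 102 and 99.2 CPM in irradiated cells at 24 h. IFNAR2 (ENSLAFG00000014030, scaffold 13, 22724370 to 22748561, minus strand) went from 226, 227 and 205 CPM at 5 h to 85, 101 and 86 CPM at 24 h in untreated cells (log2 fold change -1.23 ± 0.10, adjusted p = 1.8e-05). In irradiated cells it went from 216, 238 and 203 to 104, 98.4 and 95.5 CPM (log2 fold change -1.08 ± 0.10, adjusted p = 4.2e-05). The 6 libraries of 24 h ran from 85.0 to 103.9 CPM and those of 5 h from 202.6 to 237.7 CPM.

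Of the kinases, JAK1 stood at 1238, 1276 and 1437 CPM in untreated and 1109, 1125 and 1271 CPM in irradiated replicates of 5 h (log2 fold change -0.18 ± 0.09, adjusted p = 0.45, with the block 0.0018). At 24 h it stood at 882, 903 and 955 CPM against 634, 619 and 633 CPM (log2 fold change -0.55 ± 0.09, adjusted p = 0.014). The groups of 24 h were far apart, and the call was lost when untreated replicate 1, untreated replicate 3, irradiated replicate 2 or irradiated replicate 3 was left out (0.051 to 0.099). TYK2 did not pass at 5 h (0.06) or 24 h (0.21).

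Upstream of interferon, IRF8 and TLR3 fell with irradiation at both times. IRF8, a transcription factor of dendritic and B cells, stood at 205, 220.3 and 239 CPM in untreated and 102, 113 and 125 CPM in irradiated replicates of 5 h (log2 fold change -0.98 ± 0.10, adjusted p = 0.0024), and at 189.7, 278 and 214 against 102, 98.9 and 111 CPM at 24 h (log2 fold change -1.13 ± 0.14, adjusted p = 0.0058). It is 1 of the 10 dendritic cell markers summed above. TLR3, a sensor of double-stranded RNA, stood at 5.48, 4.64 and 6.5 against 3.1, 2.76 and 2.95 CPM at 5 h (log2 fold change -0.92 ± 0.16, adjusted p = 0.033) and at 14.8, 15.8 and 11.4 against 6.6, 7.07 and 4.67 CPM at 24 h (log2 fold change -1.20 ± 0.21, adjusted p = 0.019). No group of either gene overlapped with its counterpart. The call of TLR3 was lost at 5 h without any 1 library but untreated replicate 2 (adjusted p 0.073 to 0.14), and at 24 h when untreated replicate 1, untreated replicate 2 or irradiated replicate 2 was left out (0.051 to 0.063). RNASEH2B, a subunit of the nuclease that removes RNA from DNA, stood at 17, 20 and 16.2 against 12.4, 10.8 and 11.2 CPM at 24 h (log2 fold change -0.64 ± 0.12, adjusted p = 0.024), a call lost without any 1 library but irradiated replicate 1 (0.059 to 0.11).

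Of the other interferon-induced genes, LY6E, a surface protein that blocks entry of coronaviruses, rose at both times. It stood at 8.99, 8.99 and 8.71 CPM in untreated and 20.8, 20.5 and 17.9 CPM in irradiated replicates of 5 h (log2 fold change 1.14 ± 0.09, adjusted p = 0.00086), and at 5.34, 8.26 and 7.3 against 19.2, 16.3 and 20.6 CPM at 24 h (log2 fold change 1.42 ± 0.17, adjusted p = 0.0053). SIGLEC1, a sialic acid receptor of macrophages, rose at 5 h from 288, 294 and 322 to 453, 539 and 489.9 CPM (log2 fold change 0.70 ± 0.09, adjusted p = 0.0066) and did not pass at 24 h (0.75 ± 0.18, adjusted p = 0.056). With all 12 libraries in 1 fit its adjusted p at 5 h was 0.062. At 24 h TRIM38, a ubiquitin ligase, fell from 134, 129 and 126 to 88.4, 82.7 and 87.1 CPM (log2 fold change -0.60 ± 0.08, adjusted p = 0.0093, 0.063 without irradiated replicate 2). The chemokine CXCL11 went from 6.72, 6.3 and 6.3 to 3.47, 4.38 and 3.81 CPM (log2 fold change -0.74 ± 0.15, adjusted p = 0.033) and the nucleotidase NT5C3A from 31.5, 36.7 and 36.1 to 25.9, 25 and 25.3 CPM (log2 fold change -0.46 ± 0.09, adjusted p = 0.023). Leaving out any 1 of the 6 libraries ended the call of CXCL11 (adjusted p 0.053 to 0.10), and leaving out any but irradiated replicate 1 ended that of NT5C3A (0.053 to 0.13, and 0.19 with all 12 libraries in 1 fit).

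**Figure D4:**
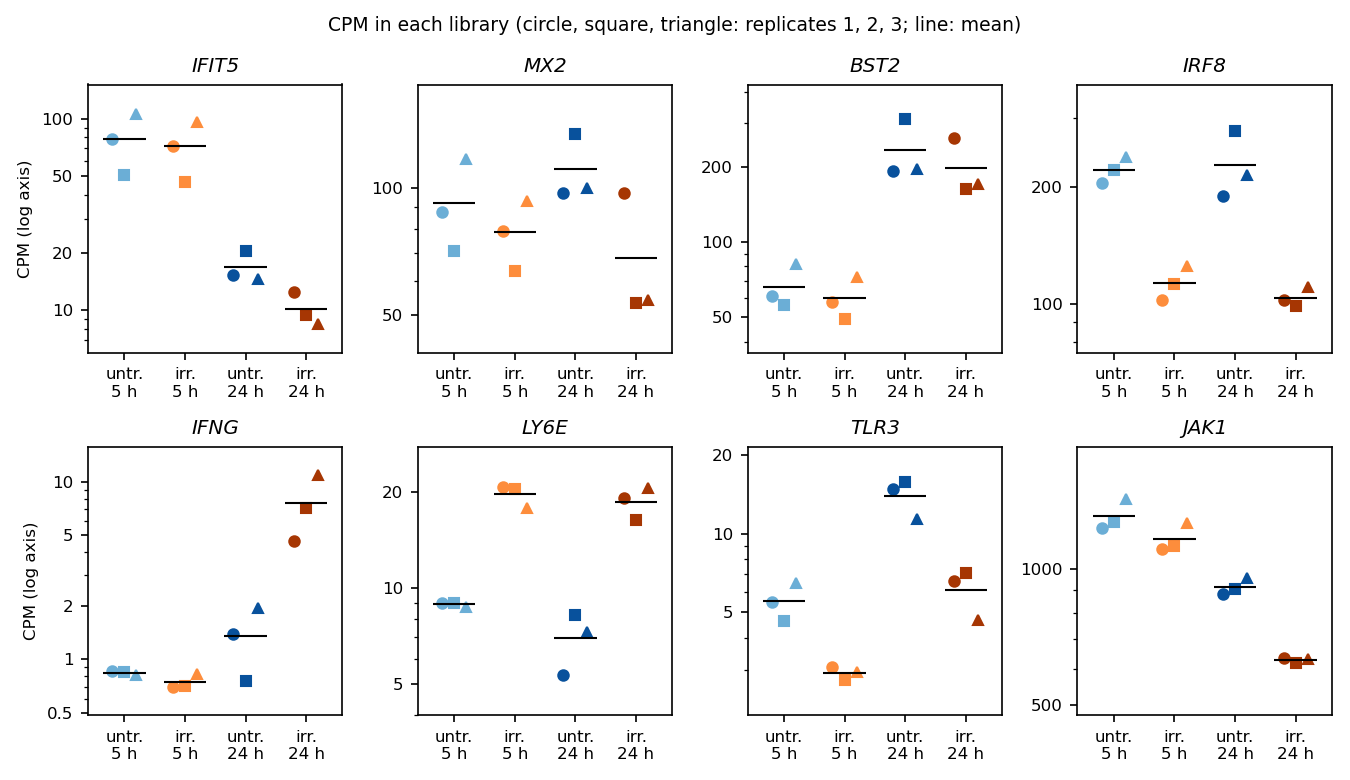
CPM (log axis) of 3 interferon-stimulated genes (IFIT5, MX2 and BST2) and of 5 pathway genes (IRF8, IFNG, LY6E, TLR3 and JAK1) in each of the 12 libraries. Symbols are replicates 1, 2 and 3 and the line is the group mean. IFIT5 is lower and BST2 higher at 24 h whatever the irradiation, IFNG stands above 4 CPM in irradiated cells of 24 h alone, IRF8 is lower in irradiated cells at both times, and MX2 shows untreated replicate 2 and irradiated replicate 1 of 24 h above their groups.

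Between the times the pathway genes with the smallest p had the same sign in untreated and irradiated cells. TICAM1, the adaptor of TLR3, fell (log2 fold changes -2.79 ± 0.16 in untreated and -2.53 ± 0.10 in irradiated cells). The adaptor ligase TRAF6 fell (log2 fold changes -1.27 ± 0.08 and -1.10 ± 0.10), as did STAT3 (-1.27 ± 0.12 and -1.39 ± 0.11), the RNA-processing enzyme PNPT1 (-1.09 ± 0.11 and -1.34 ± 0.11), the transcription factor IRF5 (-1.34 ± 0.11 and -1.39 ± 0.14), the helicase HELZ2 (-1.54 ± 0.14 and -1.26 ± 0.14) and CXCL11 (-1.79 ± 0.13 and -2.45 ± 0.16). The lysosomal reductase IFI30 rose (1.69 ± 0.11 and 1.81 ± 0.12), as did the RNA helicase MOV10 (1.20 ± 0.09 and 1.34 ± 0.10) and the RNA sensor TLR8 (1.90 ± 0.15 and 1.92 ± 0.14). IDO1, a tryptophan-degrading enzyme, ran from 5.92 to 8.42 CPM over the 6 libraries of 5 h and from 43.4 to 119.7 CPM over those of 24 h (log2 fold changes 3.44 ± 0.36 and 3.42 ± 0.24). The adjusted p of these genes was at most 0.00011 in either comparison. GBP6, another guanylate-binding GTPase, was called higher at 24 h in both and had 0.0627 to 0.224 CPM at 5 h, with as few as 2 counts in a library, and 1.18 to 2.74 CPM at 24 h.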

How the data were processed

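Total RNA of 12 blood libraries was column-purified and made into stranded libraries after ribosomal depletion, per the labels' protocols. The authors deposited 1 table per time with raw read counts, FPKM values and a log2 ratio of the groups, per the file headers. The read aligner, read counter and strand setting were not given in the sources used here. Counts entered every test, and the deposited FPKM gave the levels per length. The authors' deposited log2 ratio, coded untreated over irradiated, differed from the fits in size by at most 0.01 at 5 h and 0.07 at 24 h. Coordinates are of the elephant assembly of the file headers (L_africana_Jul_2009). The deposited end minus start equalled the gene's length in 1449 rows and fell 1 short of it in 0, so starts count from 0 and are printed counted from 1.

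Each comparison was fitted with edgeR 4.0.16 (R 4.3.3, TMM, filterByExpr, quasi-likelihood F test, Benjamini-Hochberg at 0.05 over all genes tested) on its own 6 libraries, and the interaction on all 12. CPM are scaled over all 12 libraries, and fold changes are ± SE. Repeats used the replicate block, DESeq2 1.42.0, RLE scaling, no filter, a stricter filter (1 CPM in every library of a group), all 12 libraries, and each library left out. Scripts were tested on simulated data. The genes, lists and rules were chosen with earlier results of these data known. Per-library values are given for genes that passed, or the 8 with the smallest p where fewer than 8 did, and for pathway genes that passed (at most 10 a comparison) with IFNG, IFNB1, IFNAR1, IFNAR2, JAK1, TYK2 and MDM2. A further gene that was to be named whatever its result is not reported here, and the counts of its list include it.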

Additional observations from a re-analysis of the deposited data

Results flagged for a closer look

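The irradiation effect on IFNG differed between the times by the test of the difference itself (interaction log2 fold change 2.62 ± 0.52, edgeR adjusted p = 0.036). It was -0.18 at 5 h and 2.44 at 24 h, and in irradiated cells of 24 h all 3 libraries lay above the other 9. The interaction lost its call without any single library except untreated 24 h replicate 2 or 3 and irradiated 24 h replicate 1 (adjusted p 0.058 to 0.11 in the 9 cases), with values from 2.25 to 2.70 in those cases.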

How the results depend on the processing

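The numbers of interferon-stimulated genes called in the 5 comparisons stayed within 1.5 times their value under RLE scaling, without a filter, with the stricter filter and with all 12 libraries. With the replicate block 14 genes were called at 5 h against 0 without it. The block moved no other of these counts by over 1.5 times, and at 24 h it called 0. The numbers do not pair libraries at 24 h, where untreated replicates 1 and 2 correlated best with irradiated replicates 2 (0.45) and 1 (0.61), as a hint from the data only, and the block called 707 genes in all against 968. Nor do they pair libraries between the times, where the block ended the calls of ADAR (adjusted p = 0.065) and PARP14 (0.077) in untreated cells. DESeq2 called 1 at 24 h (IFIT5). Leaving out 1 library gave 0 calls at 5 h and in the interaction, where 0.653% to 1.45% and 0.481% to 1.06% of all genes passed. At 24 h it gave 0 to 3 (1.98% to 7.19% of all genes). Between the times it gave 13 to 22 in untreated (50.7% to 60.6%) and 14 to 25 in irradiated cells (57.3% to 68.5%). The highest counts at 24 h and in irradiated cells came without irradiated 24 h replicate 1. In untreated cells the highest came without untreated 24 h replicate 2. At 5 h the unblocked log2 fold change of IFIT3 ranged from -0.48 to 0.02 without 1 library, the latter without untreated replicate 3. The causes of these changes were not tested. With 3 libraries a group the median unadjusted 95% half-width without a block was 0.47 at 5 h and 0.40 at 24 h (log2). It is not a limit of detection. At 24 h the interval of IRF1 (0.32) ran from 0.02 to 0.62, and IFIT5 at -0.73 did not pass after adjustment (edgeR adjusted p = 0.07). A gene that did not pass may thus still have changed. A count of promoter motifs was not run.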
